A study of Mus musculus and Homo sapiens with 12 samples.

Results

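The clustered protocadherin genes were taken as the protein-coding genes whose symbol is Pcdha, Pcdhb or Pcdhg followed by a number, or by a, b or c and a number, with the human genes PCDHA, PCDHB and PCDHG chosen in the same way. This gave 57 of 54446 mouse genes (14 alpha, 22 beta and 21 gamma) and 53 of 58721 human genes (15 alpha, 16 beta and 22 gamma). The symbol Pcdha11 belonged to 2 mouse gene identifiers, and both were kept.

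The libraries held chromatin-associated RNA (caRNA) of 2 wild-type cell lines, fragmented and either pulled down with an antibody against 5-methylcytosine (m5C; the IP libraries) or sequenced without pull-down (Input). Mouse embryonic stem (mES) cells were grown with LIF, a GSK3 inhibitor and a MEK inhibitor and passaged on gelatin to remove feeder cells. K-562 is an established human leukaemia line. The labels say that it was kept with puromycin, which the study's methods name for K-562 lines carrying a short hairpin RNA and not for wild-type cells. Each line gave 3 Input and 3 IP libraries, and the study calls the replicates of its genome-wide data biological. Neither it nor the labels say that these libraries came from separate cultures, so p-values measure the spread between them, part of which may be technical. The antibody named in the labels did not follow the sample titles, and groups were taken from the titles. Counts in genes were 29007088 to 34752646 per library in mES cell Input, 473398 to 592324 in mES cell IP, 10477119 to 11865285 in K-562 Input and 93110 to 111286 in K-562 IP. A floor of 3 counts per library is therefore 0.0863 to 0.103, 5.06 to 6.34, 0.253 to 0.286 and 27.0 to 32.2 CPM (counts per library scaled to a common total), and these limits cover counting error only.

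Clustered protocadherins are cell-surface cadherins of neurons, and the combination of isoforms that a neuron displays lets its branches tell self from non-self. In the alpha and gamma clusters each variable first exon has its own promoter and is spliced to constant exons at the end of the cluster, so that the genes overlap, whereas each beta gene is a single exon. Promoters are chosen with the help of CTCF and cohesin, with CTCF binding at a short sequence element that holds CGCT, and the promoters that are not chosen carry DNA methylation.

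What a count of such a gene can mean was settled first. The deposited counts followed whole genes on the same strand: a gene lying entirely inside other genes of its own strand was left almost without counts, even where its exons were clear of the others. Of such covered genes with clear exons, members aside, 5 of 5254 (0.0952%) had any count in the 6 mES cell libraries, against 26045 of 36835 (70.7%) of genes that overlapped no gene of their strand. In K-562 the shares were 156 of 6780 (2.3%) and 19380 of 31194 (62.1%). Genes inside a gene of the opposite strand only were counted, at 4018 of 6069 (66.2%) and 4667 of 9908 (47.1%). Reads in the shared stretches were set aside as ambiguous, which took 3.02% to 3.04% of the mES cell Input records and 5.0% to 5.02% of the K-562 Input records.

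**Figure D1:**
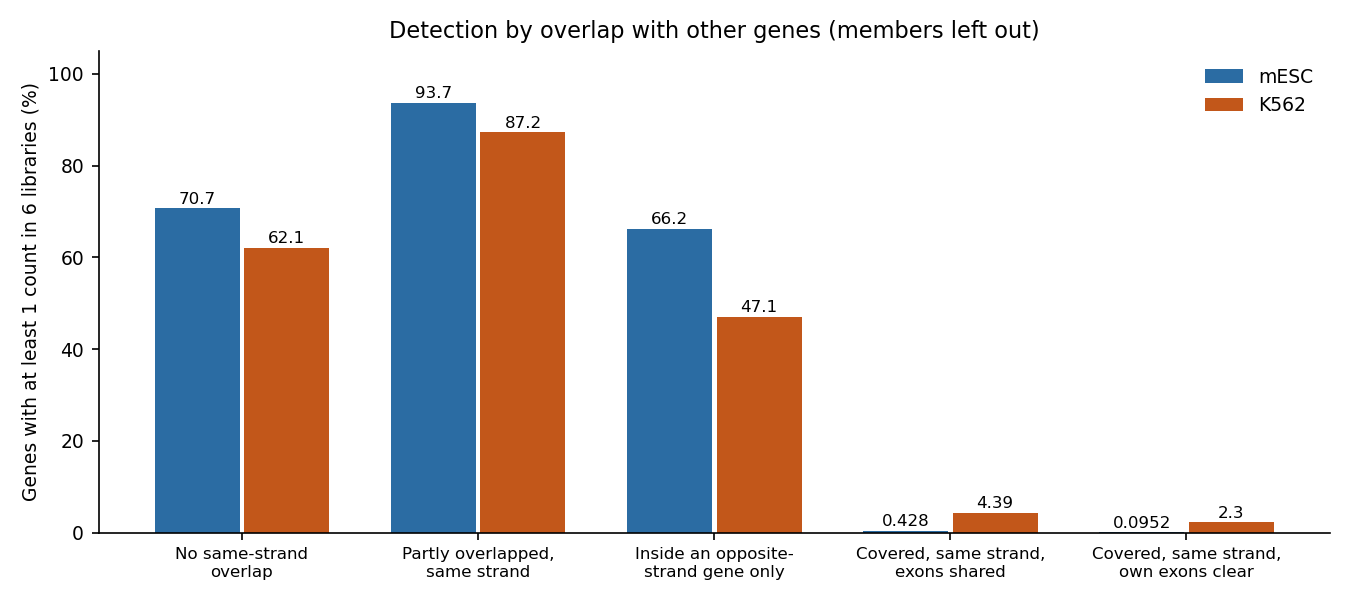
Bars give the percentage of genes with at least 1 count in the 6 libraries of a line (vertical axis), by how a gene overlaps other annotated genes (horizontal axis), with mES cells in blue and K-562 in orange. Covered genes with their own exons clear were counted in 0.0952% and 2.3% of cases, and genes with no same-strand overlap in 70.7% and 62.1%.

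By that rule 1 of the 57 mouse members and 15 of the 53 human members held at least 100 bases in which a read could be assigned to them. All 57 and all 53 held exon bases that no other gene's exons share. In the mouse the countable member was Pcdha1, the first gene of the alpha cluster, with 9021 unshared bases. The other alpha genes lie inside Pcdha1. The beta genes lie inside 3 long annotated genes of the same strand, Gm42416, Gm37013 and Gm37388, which had 0 counts themselves, and the gamma genes are covered by these and by each other. In the human genome the countable members were PCDHA1, PCDHGA1 and 13 beta genes, with 69.4 kb unshared between them. None of the 56 mouse and 38 human members without such a stretch had a count in any library. Their zeros are therefore no measure of transcription.

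In mES cells the expression of the clusters could be read only at Pcdha1 (ENSMUSG00000103442.5, GRCm38, chromosome 18, 36930184 to 37187661, plus strand), and it had no count in Input. Pcdha1 had 0, 0 and 0 counts in Input replicates 1, 2 and 3 and 3, 3 and 0 counts in IP replicates 1, 2 and 3. Both positive libraries were IP libraries, the third IP library was at 0 like the Input libraries, and so the groups overlapped. With 96803295 counts in the Input group, 0 counts allow a level of up to 0.031 CPM (3 counts of the total, counting error only). The summed IP counts, taken as exact, were 117-fold that floor. Such a pattern was common at this depth: of 1001 other genes with 0 Input counts and 6 to 12 kb unshared, 136 (13.6%) had at least 6 IP counts, as had 3.96% of all countable genes with 0 Input counts. Pcdha1 had 0.665 IP counts per kb of its unshared stretch, against 0.298 per kb summed over those genes. Pcdha2 to Pcdha9, both genes called Pcdha11, Pcdha12, Pcdhac1, Pcdhac2, all 22 beta members and all 21 gamma members had 0 counts in all 6 libraries.

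In K-562 the member with the most counts was PCDHGA1 (ENSG00000204956.5, GRCh38, chromosome 5, 141330514 to 141512975, plus strand), the first gene of the gamma cluster. It had 9, 6 and 8 counts in the Input libraries and 3, 0 and 0 in the IP libraries. All 3 Input libraries were positive, and in IP the signal sat in replicate 1 alone. In Input this was 0.681 CPM ± 0.139 (SD, n = 3), or 0.165 CPM per kb of unshared exon and 0.0826 CPM per kb of the unshared stretch of the whole gene. The latter was higher than in 41.1% of 18918 other countable protein-coding genes, whose median was 0.349. The lncRNA ENSG00000272070.1, which ends 1150 bases before PCDHGA1 on the same strand, had 14, 10 and 12 Input counts and 0 in every IP library; its part in the PCDHGA1 counts was not tested.

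The beta genes, each a complete cadherin ectodomain with its own promoter, were nearly empty in K-562. PCDHB3 had 3, 0 and 0 Input counts, so that its level rests on replicate 1. PCDHB2 and PCDHB4 each had 0, 0 and 1, and PCDHB15 had 1, 0 and 0. No beta gene had an IP count. In CPM per kb of unshared exon, PCDHGA1 at 0.165 was followed by PCDHB3 at 0.0251, PCDHB4 at 0.00836, PCDHB15 at 0.00782 and PCDHB2 at 0.00776. The last 4 are each at or under 3 counts over the group (0.0886 CPM) and do not differ beyond their spread. PCDHA1, PCDHB1, PCDHB5, PCDHB6, PCDHB7, PCDHB9, PCDHB10, PCDHB11, PCDHB12 and PCDHB13 were countable and had 0 counts in all 6 libraries, which allows up to 0.0886 CPM in Input and 9.61 CPM in IP. The 38 members with no countable stretch, listed at 0 throughout, were PCDHA2 to PCDHA13, PCDHAC1, PCDHAC2, PCDHB8, PCDHB14, PCDHB16 and the gamma genes other than PCDHGA1.

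Near-identical copies limit the beta genes further. Of the 50-base windows in the countable stretch of a member, 1.88% in PCDHA1, 1.94% in PCDHB1 and 3.38% in PCDHGA1 recurred elsewhere on chromosome 5. In the other countable beta genes the share was 9.67% in PCDHB7 to 35.3% in PCDHB10, and reads from such windows can be placed at another copy.

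**Figure D2:**
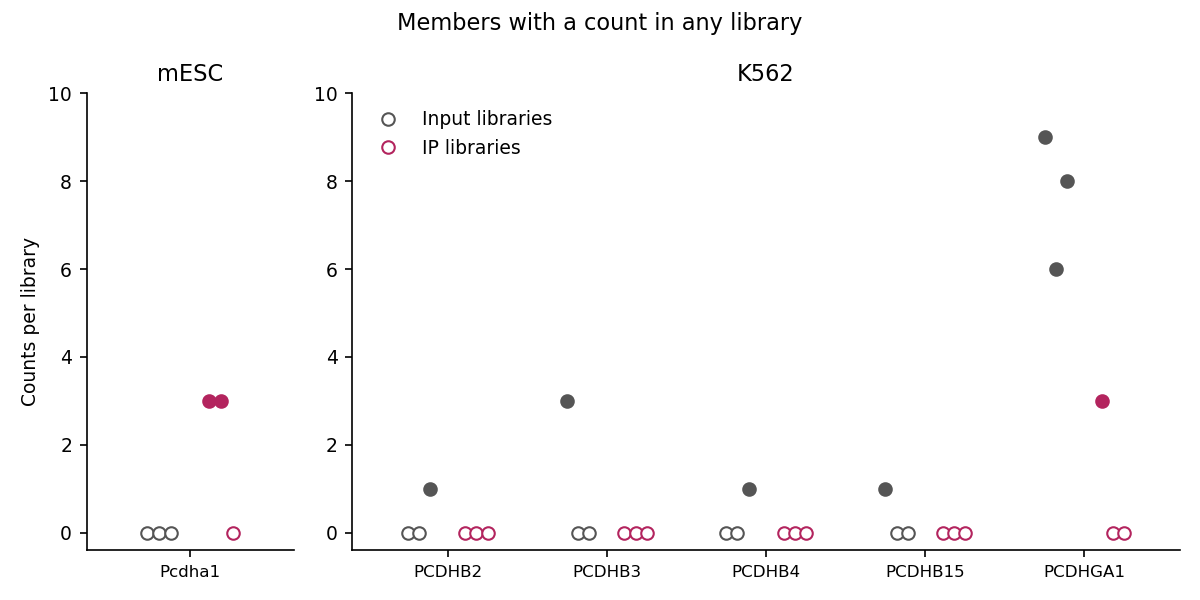
Each circle is the count of 1 library (vertical axis, counts per library) for a member with any count (horizontal axis), with Input in grey, IP in red and open circles at 0. PCDHGA1 is the member with counts in all 3 libraries of a group, at 6 to 9 in Input, and no other member exceeded 3 in a library.

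**Figure D3:**
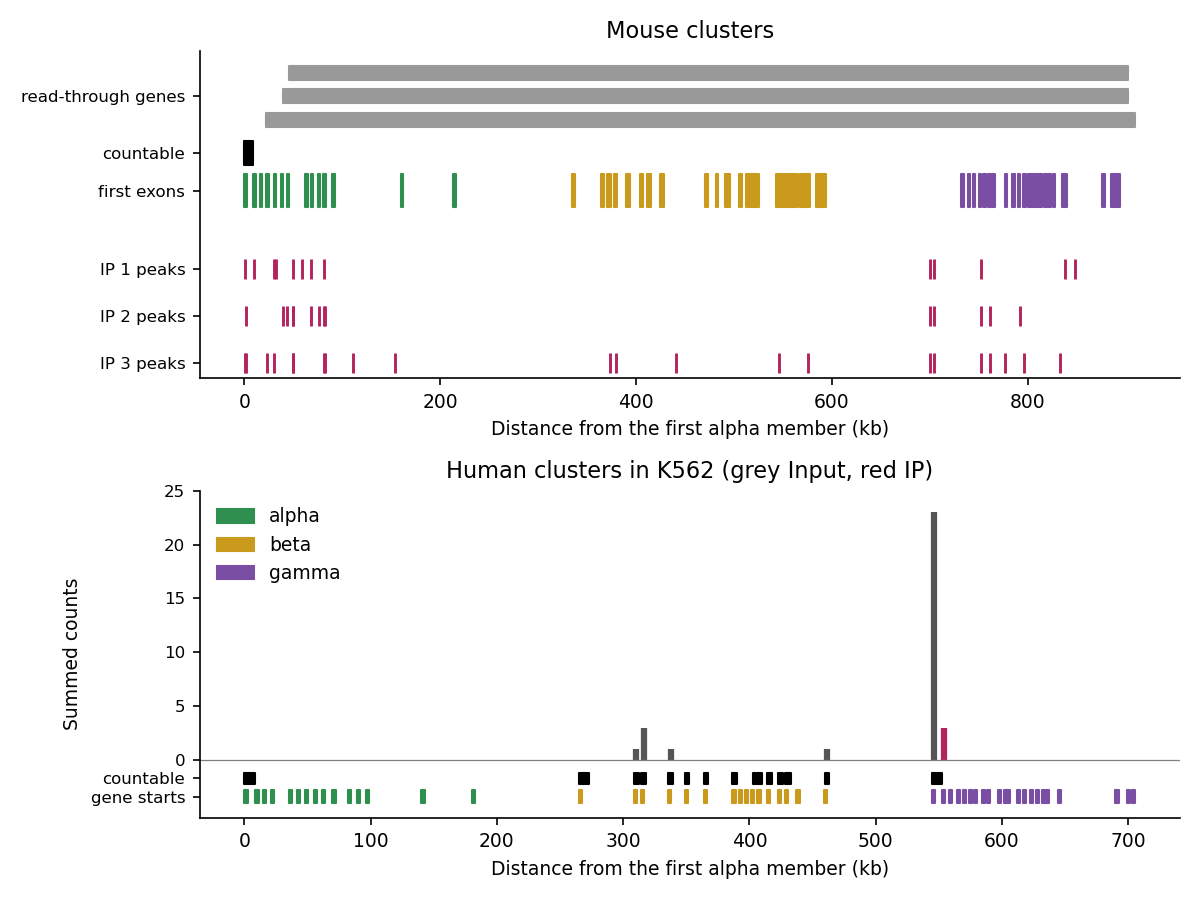
Positions are distances in kb from the first alpha member, for the mouse clusters (top: the 3 long covering genes in grey, labelled read-through, the countable stretch in black, member first exons in green, yellow and purple, and peaks of the 3 IP libraries in red) and the human clusters (bottom: gene starts, countable stretches and counts summed over 3 libraries, Input in grey and IP in red, drawn beside each other). The mouse clusters have 1 countable stretch, at Pcdha1, and the human clusters have 15, of which PCDHGA1 holds 23 Input counts and 3 IP counts.

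The start windows of PCDHGA1, PCDHB3 and PCDHA1 are shown because PCDHGA1 and PCDHA1 were the only countable genes of the human gamma and alpha clusters and PCDHB3 had the most counts of the beta cluster. Each is 300 bases of GRCh38, 250 before the annotated start and 50 from it on, on the plus strand. Capitals mark CGCTGT, an extension of the CGCT element that was picked after these sequences had been seen. It was searched on both strands, every CGCTGT also holds CGCT, and it begins 95, 64 and 34 bases before the annotated starts of PCDHGA1, PCDHB3 and PCDHA1.
PCDHGA1, chr5:141330264-141330563: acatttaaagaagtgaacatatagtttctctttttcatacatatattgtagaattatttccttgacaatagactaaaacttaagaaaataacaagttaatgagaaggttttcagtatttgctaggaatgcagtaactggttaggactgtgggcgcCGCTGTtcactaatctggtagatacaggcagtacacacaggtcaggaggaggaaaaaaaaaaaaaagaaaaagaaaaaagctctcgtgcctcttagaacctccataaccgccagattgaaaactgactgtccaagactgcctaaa
PCDHB3, chr5:141100223-141100522: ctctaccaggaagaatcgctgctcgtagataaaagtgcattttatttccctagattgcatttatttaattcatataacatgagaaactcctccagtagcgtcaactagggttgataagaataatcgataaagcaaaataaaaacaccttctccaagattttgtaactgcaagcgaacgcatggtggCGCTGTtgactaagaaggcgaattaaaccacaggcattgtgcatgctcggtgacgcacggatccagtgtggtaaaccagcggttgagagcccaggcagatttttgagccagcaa
PCDHA1, chr5:140785886-140786185: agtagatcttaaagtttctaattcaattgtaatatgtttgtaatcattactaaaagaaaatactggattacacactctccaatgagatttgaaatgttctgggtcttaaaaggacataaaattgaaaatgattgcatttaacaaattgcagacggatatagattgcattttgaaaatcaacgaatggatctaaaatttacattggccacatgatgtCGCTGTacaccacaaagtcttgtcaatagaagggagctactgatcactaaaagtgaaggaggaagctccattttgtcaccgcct

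CGCT on either strand was present in 51 of 53 member start windows (96.2%) and in 640 of 825 windows of other protein-coding genes on chromosome 5 (77.6%), although the member windows were poorer in CpG, at a median of 7.0 against 20. The longer CGCTGT was in 18 of 22 gamma windows (81.8%), 8 of 15 alpha windows (53.3%) and 1 of 16 beta windows (6.25%), that of PCDHB3, against 111 of 825 (13.5%) elsewhere on the chromosome. A match describes the letters of the window and is not evidence of a bound factor.

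IP was then compared with Input within each line. No member passed the filter on low counts in mES cells, in K-562 or in the joint fit of both lines, so 0 of 57 and 0 of 53 were tested by edgeR or DESeq2 and none had an unadjusted p. Of the genes that were tested, edgeR called 82.0% in mES cells, 31.9% in K-562 and 31.0% for the difference between the lines (quasi-likelihood test, Benjamini-Hochberg adjusted p below 0.05). Without the filter Pcdha1 was called higher in IP, with a fitted log2 difference of 7.57 (SE 1.73; adjusted p = 2.76e-05 by edgeR), as were 36.4% of the 34804 genes then tested. PCDHGA1 was called higher at 3.23 (SE 1.23, edgeR adjusted p = 0.0362), as were 13.2% of 31714 (26.0% were called in either direction, and 64.3% in mES cells). The ratio of PCDHGA1 in CPM was 14.1 (exact 95% interval 2.72 to 46.8). Without IP replicate 1 no IP count was left, which allows at most 21.6-fold if the Input counts are taken as exact. Of 1435 other genes with 18 to 28 Input counts, 455 (31.7%) had at least 3 IP counts. PCDHB2, PCDHB3, PCDHB4 and PCDHB15 gave adjusted p = 0.914 each. The summed beta cluster had 6 Input and 0 IP counts. With the Input counts taken as exact, this allows an IP level of up to 54.2-fold the Input level. Enrichment or depletion of the beta genes was not detectable at this depth. For the difference between the lines 6 members were tested by edgeR without the filter and 0 were called, by adjusted or unadjusted p, beside 28.5% of all genes then tested. That test could not decide, since 1 of the lines held no count for each of the 6 and the SE was 3320 to 15400. Apart from Pcdha1 their mouse genes could not be counted at all.

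The peak lists of the mES cell IP libraries do not rest on gene assignment and could be read at all 57 members. The span from the first to the last member (chromosome 18, 36930184 to 37841873) held 13, 14 and 22 peaks in replicates 1, 2 and 3. That is 17.9 peaks per Mb and list, against 3.35 on chromosome 18 and 5.12 on chromosomes 1 to 19, X and Y. The peaks lay mostly in the alpha cluster, with 8, 9 and 10, or 35.0 per Mb. The gamma cluster had 3, 3 and 5 (20.4 per Mb), and the beta cluster had 0, 0 and 5 (6.42 per Mb). The beta peaks all came from replicate 3, and the alpha and gamma peaks came from every list.

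Within the alpha cluster the peaks sat on the variable first exons, which encode the ectodomains. These exons make up 14.2% of the alpha span and held 19 of its 27 peaks. On either strand, 9 of 14 alpha first exons (64.3%), 6 of 21 gamma first exons (28.6%) and 4 of 22 beta exons (18.2%) overlapped a peak of at least 1 list by at least 1 bp. Over all members this was 19 of 57 (33.3%), against 741 of 21861 other protein-coding genes (3.39%). Long first exons offer more room, and 135 of 989 other genes with a first exon of at least 2 kb had a peak (13.7%). Of those with at least 3 CpG per 100 bases as well, 78 of 382 had one (20.4%). The alpha share thus stood above each of these backgrounds, the gamma share above them by less, and the beta share between the last 2; these shares were not tested. Counting a peak only where its midpoint fell in the exon left 19 of 57, against 2.76%, 13.0% and 19.6% in the same 3 backgrounds. Without the replicate 3 list 12 of 57 members had a peak (21.1%), 8 of 14 in alpha (57.1%), 4 of 21 in gamma (19%) and 0 of 22 in beta, against 2.44%, 9.0% and 13.1% in those backgrounds.

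The first exons of Pcdha1, of Pcdha11 (ENSMUSG00000102206.5) and of Pcdhgb1 carried a peak in all 3 lists, and those of Pcdha5, Pcdha9 and Pcdhgb2 in 2 lists. In the same 3 backgrounds, 50 of 21861, 13 of 989 and 8 of 382 genes had a peak in all 3 lists, and 174, 31 and 18 in at least 2, beside 3 and 6 of 57 members. At Pcdhgb1 the peak in all 3 lists was a minus-strand region at 37682152 to 37682306, present in replicates 1, 2 and 3. At Pcdha1 and Pcdha11 different regions of the exon were added up, and no single region was in all 3 lists. At Pcdha1 the peaks lay at 36930443 to 36930661 in replicates 1 and 3 and at 36931712 to 36931914 in replicates 2 and 3, all on the minus strand. Single lists marked Pcdha2, Pcdha4, Pcdha6, Pcdha7 and the other Pcdha11, the beta genes Pcdhb3, Pcdhb4, Pcdhb15 and Pcdhb20, and the gamma genes Pcdhga6, Pcdhgb4, Pcdhga8 and Pcdhga12. A region in all 3 lists was also seen at 36980196 to 36980345, on no member first exon, and at 37630216 to 37630383 and 37634772 to 37634955 between the beta and gamma clusters.

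**Figure D4:**
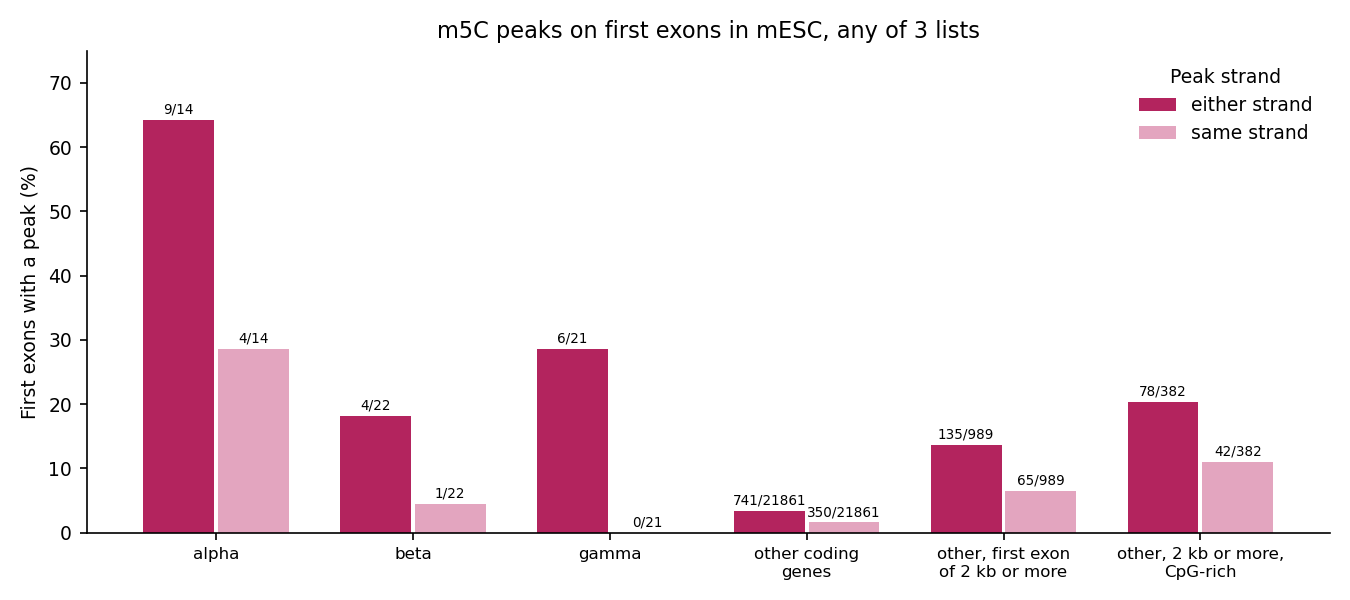
Bars give the percentage of first exons that overlap an m5C peak of any of the 3 mES cell lists (vertical axis), for the member clusters and for other protein-coding genes (horizontal axis), with peaks of either strand in dark red and peaks of the gene's own strand in pink; the numbers are genes with a peak over all genes. Alpha stands at 9/14, gamma at 6/21 and beta at 4/22, and CpG-rich other genes with a first exon of 2 kb or more at 78/382.

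The strand given with a peak did not follow the strand of the gene. Genome-wide 1188 of 3019 exonic peaks (39.4%) carried the strand of their gene, and all members lie on the plus strand. With peaks of the plus strand alone, 5 of 57 members had one (8.77%), of which 4 were alpha genes, 1 was a beta gene and none was a gamma gene, against 1.60% of other protein-coding genes, 6.57% of those with a long first exon and 11.0% of those with a long, CpG-rich first exon. Of the 49 peaks 31 were on the minus strand, 10 of the 11 gamma peaks among them. Alpha and gamma peaks were rich in CpG, with a median of 7.33 and 8.0 per 100 bases against 2.0 genome-wide, and the alpha peaks held a median of 0% repeat-masked bases against 50.7%. The first exons themselves held 4.51 CpG per 100 bases in alpha, 3.43 in gamma and 1.95 in beta. The parts of base composition and strand in the peaks were not tested.

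RNAs annotated on the strand opposite to the members could be counted. This list of 12 mouse genes was drawn up after their values had been seen. Gm26672 in the gamma cluster (chromosome 18, 37746559 to 37768242, minus strand), had 764, 922 and 976 Input counts, or 26.3, 27.9 and 28.1 CPM, and 55, 25 and 29 IP counts, or 116, 42.5 and 49 CPM. It had the most counts of the list in both groups, and its log2 IP/Input of 0.29 (SE 0.256) did not pass the test (edgeR adjusted p = 0.294). Gm37165, also in the gamma cluster, had 9, 6 and 21 Input counts and 6, 19 and 20 IP counts and was higher in IP, at a log2 of 5.17 (SE 0.574, edgeR adjusted p = 4.68e-07). Gm10545, which spans the first exon of Pcdha11 (ENSMUSG00000102206.5), had 0 in every Input library and 2, 8 and 8 IP counts, with groups that did not overlap. Gm10544, in the alpha cluster, had 4, 3 and 6 against 2, 3 and 1 counts, higher in IP by 3.72 on the log2 scale (SE 0.888; adjusted p = 0.0011 by edgeR). Of the 5 tested genes of the list 3 were higher and none was lower, beside 39.9% of all tested genes called higher. These 3, at Input means of 0, 0.134 and 0.365 CPM, passed the filter on low counts through their IP counts and could hardly have been lower. Gm29994, with 8, 2 and 9 Input counts and 0 in every IP library, did not pass it. The absence of lower genes is therefore no result about the list. With library size alone all 5 were called higher, Gm26672 and BC037039 among them. In K-562 10 of 13 opposite-strand genes had 0 Input counts and none was tested. There ENSG00000279726.1, which covers the start of the alpha cluster, had 2, 1 and 0 Input counts and 3, 1 and 2 IP counts, and ENSG00000272154.4 and ENSG00000280029.3 over the beta genes had 2, 3 and 2 and 3, 2 and 2 Input counts.

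Most genes around the clusters had more counts than the countable members. Taf7, a single-exon subunit gene of the general transcription factor TFIID that sits between the beta and gamma clusters, had 743, 932 and 920 Input counts and 7, 1 and 2 IP counts in mES cells. It was lower in IP by a log2 of -3.12 (SE 0.42, edgeR adjusted p = 4.06e-06). Slc25a2, a mitochondrial ornithine carrier next to it, had 52, 56 and 48 Input counts and 1, 1 and 0 IP counts. Diaph1, a formin just beyond the gamma cluster, had 11346, 13093 and 14066 Input counts, or 4.33 CPM per kb ± 0.0748 (SD, n = 3), higher than in 92.0% of 21288 other coding genes. In K-562 TAF7 had 310, 345 and 302 Input counts and DIAPH1 6188, 6055 and 5700, or 5.1 CPM per kb ± 0.117; PCDHGA1 was at 0.0826 on the same scale.

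Of the 15 mouse genes within 200 kb of the clusters or inside their span, 2 were higher and 8 lower in IP (42.1% of all tested genes were lower). Arap3, a GTPase-activating protein, was highest at 3.16 (SE 0.507, edgeR adjusted p = 2.61e-05) and Rell2 next at 1.68 (SE 0.61, edgeR adjusted p = 0.0184), while Ik, a splicing factor, was next lowest to Taf7 at -2.39 (SE 0.335, edgeR adjusted p = 6.23e-06). Of 16 human neighbours 14 were tested, 1 was higher and 4 were lower, beside 15.0% and 16.8% of all tested genes. IK was higher at 1.25 (edgeR adjusted p = 0.000134), RELL2 lower at -3.05 (edgeR adjusted p = 0.0103), HARS1, a histidyl-tRNA synthetase, lower at -1.61 (edgeR adjusted p = 0.000834), and DIAPH1 lower at -0.33 (edgeR adjusted p = 0.0314), a value that turned to 0.11 to 0.14 when an Input library was left out and fewer genes were kept, and stayed at -0.34 to -0.31 over the same genes. The direction of small changes depends on the scaling, since the median over all tested mouse genes was -0.17 with TMM and 0.80 with library size alone. The Rell2 call held in 7 of 15 alternatives and that of Arap3 in all 15. With library size alone 2 mouse neighbours were higher and 6 lower, and 1 human neighbour was higher and 3 lower.

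Related cadherins outside the clusters could be counted. Among the 12 non-clustered protocadherins, single genes that share the ectodomain but lie alone, 10 were tested in mES cells. Of these, 9 were higher in IP and none was lower, beside 39.9% and 42.1% of all tested genes. Pcdh12, Pcdh10, Pcdh8 and Pcdh17, at Input means of 0.0446, 0.122, 0.124 and 0.426 CPM, passed the filter on low counts through their IP counts. They could hardly have been called lower, so the count of 9 is partly set by the filter. Pcdh18, with 5, 16 and 14 Input and 2, 0 and 1 IP counts, was not tested. The summed level of all 12 was 34.7 to 37.5 CPM in Input and 733 to 876 CPM in IP. The median log2 IP/Input of the 10 tested was 4.59. Pcdh12 of endothelium had 3, 1 and 0 Input counts and 11, 9 and 13 IP counts, a log2 of 7.70 (SE 0.781, edgeR adjusted p = 1.67e-07). Pcdh8 had 4, 3 and 5 against 11, 9 and 8, a log2 of 6.06 (SE 0.629, edgeR adjusted p = 2.15e-07). The smallest of the 9 were Pcdh1 at 4.05 and Pcdh11x at 3.47. Mean Input levels of the 9 were 0.0446 to 6.48 CPM. Pcdh19, which was tested and did not pass (log2 -0.64, edgeR adjusted p = 0.18), had 17.2 CPM in Input. Pcdh20, like Pcdha1, had 0 in every Input library and 2, 6 and 1 IP counts. In K-562 the sum was 1140 to 1180 CPM in Input, nearly all of it PCDH9 with 13598, 13069 and 12106 counts. PCDH9 was lower in IP at -1.40 (SE 0.116, edgeR adjusted p = 1.37e-23) and PCDH15 higher at 4.58 (SE 0.495, edgeR adjusted p = 2.41e-15), and the other 2 tested did not pass. Of all genes tested in K-562, 15.0% were called higher and 16.8% lower.

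Markers of neurons, the cells that clustered protocadherins are known for, were also read in both lines. In mES cells the 8 neuron markers summed to 292 to 303 CPM in Input, of which Stmn2 took 253 CPM on average, and to 540 to 907 CPM in IP. Rbfox3, which defines mature neurons, was at 5.41, 4.63 and 4.58 CPM in Input and 264, 342 and 530 CPM in IP, and Tubb3, which has no unshared stretch, was at 0. The 6 mES cell markers summed to 1400 to 1410 CPM in Input and 534 to 670 CPM in IP, with Sox2 at 0 for lack of an unshared stretch. The 6 fibroblast markers, which bear on feeder cells, summed to 66.1 to 69.3 CPM in mES cell Input and 61.2 to 126 CPM in IP. In K-562 the 6 erythroid markers summed to 266 to 273 CPM in Input, with HBG2 at 0 for lack of an unshared stretch, and 453 to 629 CPM in IP, and the neuron markers to 3.44 to 4.38 and 96.6 to 167 CPM. Fibroblast markers there were at 1.81 to 2.17 and 10.7 to 74.1 CPM. The 6 mES cell markers summed in K-562 to 391 to 404 CPM in Input, above the erythroid sum, and to 241 to 355 CPM in IP. ESRRB took 397 CPM of that Input sum on average. The part of these cell types in the members' counts was not tested.

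The large cadherins were 9 Fat, Dachsous and Celsr genes of planar polarity. Of them 6 were higher and 2 lower in mES cells, beside 39.9% and 42.1% of all tested genes. Dchs2 was highest at 6.46 (SE 0.282, edgeR adjusted p = 8.12e-12), with 24, 44 and 25 Input and 64, 109 and 107 IP counts, followed by Dchs1 at 6.05 (edgeR adjusted p = 2.27e-07). Dchs1, at a mean of 0.17 CPM in Input, passed the filter on low counts through its IP counts. Fat1 was lowest at -2.02 (SE 0.0895, edgeR adjusted p = 9.42e-12), and Celsr3 was lower at -0.65 (edgeR adjusted p = 0.0254) but turned to 0.32 with library size alone and, over the fewer genes then kept, to 0.03 and 0.07 without Input replicates 1 and 2. In K-562 15.0% of all tested genes were higher and 16.8% lower. Of the large cadherins 7 were tested there, with 3 higher (CELSR1 at 4.78, DCHS1 at 3.62 and FAT3 at 3.03) and 1 lower, DCHS2 at -0.64. With library size alone 7 mouse genes were higher and 1 lower, and 3 human genes were higher and none lower.

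The genes of proteins that choose and silence protocadherin promoters had chromatin-associated RNA in both lines. In mES cells 14 of the 15 genes were lower in IP and 1 was higher, beside 42.1% and 39.9% of all tested genes, and under library size alone the counts were also 14 and 1. Wapl, which unloads cohesin, was lowest at -2.65 (SE 0.114, edgeR adjusted p = 7.37e-12), then Ctcf at -2.51 (SE 0.123, edgeR adjusted p = 3.11e-11), with 6827, 7941 and 8170 Input and 48, 43 and 44 IP counts. Dnmt3a, a DNA methyltransferase, was the higher one at 0.82 (SE 0.145, edgeR adjusted p = 7.64e-05), followed from above by Wiz, a partner of histone methyltransferases, at -1.67 (edgeR adjusted p = 2.65e-07). In K-562 7 were lower and 1 higher, beside 16.8% and 15.0% of all tested genes, and under library size alone 4 were lower and 2 higher. SMCHD1, a silencer of the clusters, was lowest at -0.89 (edgeR adjusted p = 9.45e-07), then WAPL at -0.86 (edgeR adjusted p = 0.00367). DNMT3A was higher at 0.91 (edgeR adjusted p = 0.0176), a call that held in 10 of 15 alternatives, as that of WAPL did in 12 of 19, and DNMT1 lower at -0.42 (edgeR adjusted p = 0.0383), a value that turned to 0.02 to 0.04 when an Input library was left out and the filter then kept fewer genes, and stayed at -0.43 to -0.41 over the same genes.

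Among the 10 genes that act below the clustered protocadherins or cut them, 2 were higher and 5 lower in mES cells. The shares of all tested genes were 39.9% and 42.1%. Under library size alone 4 of the 10 were higher and 5 lower. Ret, a receptor kinase that joins protocadherins at the membrane, was highest at 1.98 (SE 0.518, edgeR adjusted p = 0.00229), then Cyfip2 of the WAVE complex at 0.84 (edgeR adjusted p = 7.87e-05). Its partners Nckap1 at -2.61 (edgeR adjusted p = 4.26e-11) and Wasf1 at -1.88 (edgeR adjusted p = 1.88e-08) were lowest. In K-562 9 were tested, 6 were lower and none was higher, beside 16.8% and 15.0% of all tested genes. Under library size alone 4 were lower and none was higher. WASF1 at -1.19 (edgeR adjusted p = 0.0264) and FYN, a Src-family kinase, at -1.04 (edgeR adjusted p = 2.78e-08) were lowest, and PTK2B at -0.64 and NCKAP1 at -0.50 were nearer to 0. The WASF1 call held in 5 of 15 alternatives and the NCKAP1 call in 9 of 19, against 18 of 19 for FYN.

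**Figure D5:**
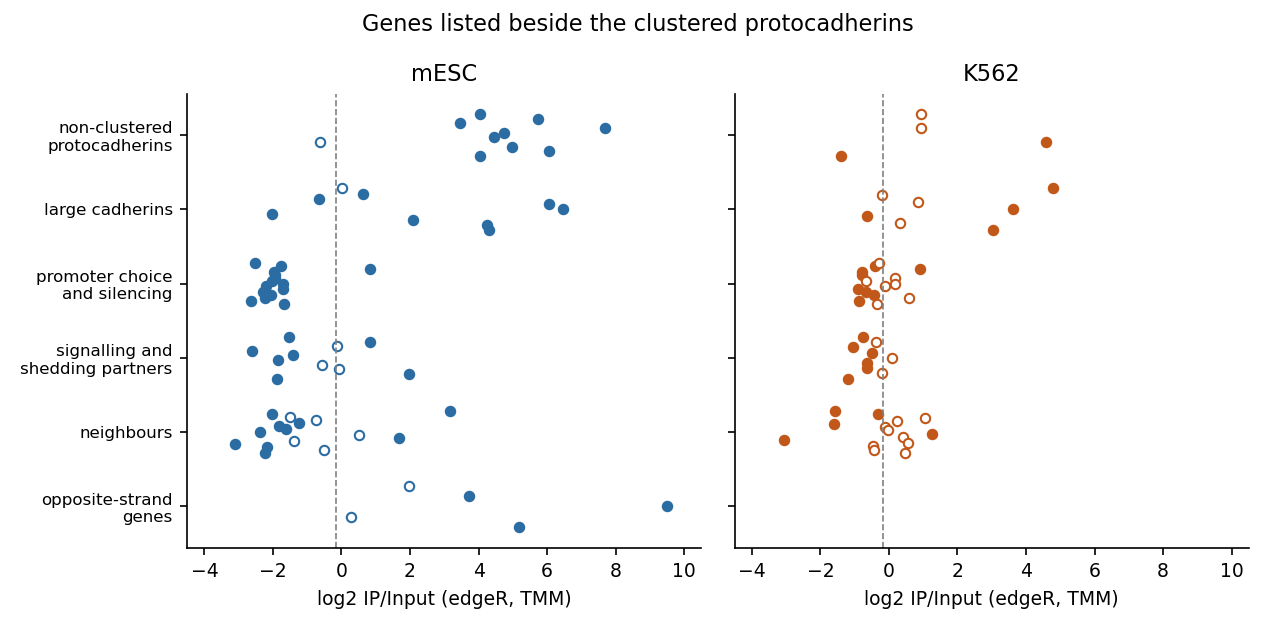
Points are genes, placed by log2 IP/Input from edgeR with TMM scaling (horizontal axis) in the lists named on the vertical axis, mES cells on the left and K-562 on the right; filled points passed an adjusted p of 0.05, open points did not, and the dashed line is the median of all tested genes, -0.17 in both. In mES cells 9 non-clustered protocadherins lie above 3 and 14 genes of promoter choice and silencing lie below -1.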

How the data were processed

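Chromatin-associated RNA of 12 libraries was analysed from the gene counts and, for mES cells, the m5C peak lists (other, positions and strand without a score) that the authors deposited. Per the methods and labels, reads were made with a stranded kit, trimmed with Trimmomatic 0.39, aligned with HISAT2 2.1.0 to mm10 or hg38 and counted per gene with HTSeq, duplicates were marked with Picard (whether before counting is not given in the sources used here), and peaks were called with MACS2 in each IP library and strand. The deposited raw counts are not normalised. Summary records that name no gene (19.0% to 19.3% of mES cell Input records, 71.4% to 71.7% of mES cell IP, 26.0% to 26.2% of K-562 Input and 60.7% to 61.4% of K-562 IP) were left out. The counting feature was inferred from the counts, and gene positions came from GENCODE releases other than the authors', which matched 99.9% and 99.1% of identifiers.

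IP was compared with Input by edgeR 4.0.16 (quasi-likelihood, TMM, filterByExpr, Benjamini-Hochberg threshold 0.05) over all genes of a line, with an interaction fit over shared symbols. The filter works in CPM, and 1 count in a mES cell IP library is already 1.69 to 2.11 CPM. Genes low in Input therefore entered the tests through their IP counts, and such genes could hardly be called lower. DESeq2 1.42.0, DESeq2 size factors in edgeR, library size alone, a GC correction, no filter, thinned Input, a replicate block and leaving out each library were alternatives, some of them chosen after seeing the data. Members and lists were chosen with earlier results of these data known. Named list genes were those furthest from 0 in each direction among the called, and others named with their counts were chosen after their values were seen. Scripts were tested on simulated data. K-562 Input replicates differed by about the sampling noise over genes (chi-square per degree of freedom 0.912 to 1.03) but differed over bins of GC content (21.1 to 98.6 on 19 degrees of freedom), and were kept as 3 libraries.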

Additional observations from a re-analysis of the deposited data

Results flagged for a closer look

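The log2 IP/Input differed between the lines for 18 of the list genes named for their outermost values in a line (joint edgeR fit, interaction of line and IP, adjusted over all shared genes). Each value is K-562 minus mES cells. Of all 14236 genes in this fit 31.0% were called. The named genes were picked on values that enter the test, the other list genes were not screened, and no member was in the fit. K-562 was lower for DCHS2 by a difference of -7.73 (adjusted p = 3.21e-19) and for PCDH9 at -6.08 (adjusted p = 6.14e-19). It was lower for ARAP3 at -5.32 (adjusted p = 4.49e-07) and RELL2 at -5.32 (adjusted p = 0.00062), both neighbours of the clusters. It was also lower for PCDH1 at -3.72, DCHS1 at -3.02, FAT3 at -1.85, CYFIP2 at -1.84 and FYN at -1.54 (adjusted p = 0.00016, 0.00249, 0.0199, 0.000153 and 1.42e-06). K-562 was higher for CELSR1 at 4.17 (adjusted p = 0.00128), and for the neighbours TAF7 at 3.04 (adjusted p = 0.00196), IK at 3.02 (adjusted p = 6.04e-05) and DIAPH1 at 1.07 (adjusted p = 0.000116). It was higher as well for FAT1 at 1.72, CTCF at 1.60, NCKAP1 at 1.48, WAPL at 1.16 and DNMT1 at 0.73 (adjusted p = 0.000274, 0.000419, 8.91e-05, 0.035 and 0.0096).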

How the results depend on the processing

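No member was tested or called in either line, or for the difference between lines, with DESeq2, other scalings, without any 1 library, or with the replicate number as a block, nor in either line with a GC correction, which was not run for the difference between lines. Without the filter on low counts 1 was called in mES cells and 1 in K-562. With the replicate block 37 genes of the pathway lists were called in mES cells and 18 in K-562, beside 39 and 20 without it. Deviations of same-numbered libraries from their group means had r of 0.0183 to 0.0273 in mES cells and -0.00666 to 0.0219 in K-562. For differently numbered libraries r was -0.0243 to -0.00113 in mES cells and -0.0199 to 0.00988 in K-562. All of these values are small, and the numbers were not taken as pairs. The pathway count ranged from 37 to 39 in mES cells when 1 library was left out and from 6 to 20 in K-562, where leaving out any Input library gave 6, with 3721 to 3726 genes passing the filter in place of 14522, and 20 with the same 14522 genes tested, and thinning Input to the IP depth gave 4. The 117-fold value for the mouse alpha cluster became 59.6 with TMM-adjusted library sizes and 41.1 with all records as library size. It was 75 to 182 with an Input library or IP replicate 3 left out. Without IP replicate 1 or 2 only 3 IP counts were left, no more than the floor, and no value was given. The upper bound of 54.2 for the human beta cluster became 28.6 with all records and 35.8 to 84.3 with 1 library left out. Without Input replicate 1 its Input counts were below 3 and no bound was given. The gamma ratio of 14.1 became 12.6 to 22.0 with 1 library left out, and was lower than that with all records as library size. Without IP replicate 1 no IP count was left, so that value is an upper limit and not a ratio. Members with a first-exon peak of their own strand numbered 5, 4 without any 1 list, and 19 on either strand by 1 bp or by peak midpoint. Those on either strand numbered 12 to 17 with 1 list left out, 12 without replicate 3. The PCDHGA1 level of 0.165 became 0.108 per kb of all its exons and 0.0826 per kb of the unshared gene. Celsr3 turned from -0.65 to 0.32 with library size alone and to 1.43 with thinned Input, and spanned -0.82 to 0.07 with 1 library left out. DNMT1 turned from -0.42 to 0.07 with thinned Input and spanned -0.56 to 0.04, and DIAPH1 spanned -0.52 to 0.14. With the tested genes kept, none of the 3 turned when a library was left out. The cause of the other changes was not tested. With 93110 to 111286 counts per K-562 IP library, a member at 0 in IP may still have had up to 9.61 CPM there.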
